A study of Mus musculus with 2 samples.

Results

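Target and feedback genes of canonical Wnt signaling (Axin2, Rnf43, Znrf3, Nkd1, Sp5, Lef1, Tcf7, Tcf7l2, Cd44 and Ephb2) were followed in ATAC-seq peak lists of mouse enteroids with or without Taf4. They were chosen by name, as 10 of the 22367 protein-coding genes of the GENCODE annotation of mouse assembly mm9. A peak within 1 kb of any annotated start site of one of these genes was called its promoter peak, and any other peak in the gene body or within 50 kb on either side was called distal. Under this rule the genes held 182 of the 90445 control peaks (13 promoter, 169 distal) and 132 of the 71282 peaks after Taf4 inactivation (12 promoter, 120 distal).

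The enteroids, which are self-organizing cultures of intestinal epithelium, were started from crypts of the ileum of mice aged 4 months, of strain C57Bl6/129sv. Control enteroids (genotype WT in the labels) were Taf4 lox/lox without a Cre transgene. Taf4-inactivated enteroids (genotype KO) were Taf4 lox/lox::VilCreERT2, in which the villin promoter drives a tamoxifen-inducible Cre in intestinal epithelial cells. The floxed alleles were thus common to both, and both received 1 µM 4-hydroxytamoxifen for 3 days, the time at which chromatin was profiled. TAF4 is one of the subunits of TFIID, the complex that places RNA polymerase II at start sites. The comparison asks how accessible chromatin at these genes differed soon after its loss.

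There was 1 library for each genotype, so no difference between them could be set against a spread between cultures or mice, and no p-value was computed. Read totals are not part of the peak lists. A background level solved from each list's fold and p was 12.1 reads in control and 7.35 after inactivation, 1.65 times deeper in control, and the control list held 1.27 times as many peaks. The fold scale moved with the library, so each peak is given by the percentile of its fold enrichment within its own list, and the part of depth in any difference between the lists was not tested. All 8 epithelial marker genes (Vil1, Cdx1, Cdx2, Epcam, Cdh1, Hnf4a, Krt8, Krt19) had a promoter peak in both lists. Of 10 markers of immune, connective, endothelial and muscle cells, Col1a1, Pdgfra and Des had one in both lists, Pecam1 had one in control alone and the other 6 had none. A promoter peak at Taf4a itself, at percentile 74.7 in control and 58.7 after inactivation, was in both lists, so the lists give no check of the deletion.

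Wnt ligands stabilize β-catenin, which enters the nucleus and joins DNA-bound TCF/LEF factors to switch on target genes. In the intestine this pathway maintains the stem cells at the crypt base, and several of its targets act back on it. Axin2 is a scaffold of the complex that destroys β-catenin, Rnf43 and Znrf3 are membrane ubiquitin ligases that clear Frizzled receptors from the cell surface, and Nkd1 binds Dishevelled and dampens the signal. Lef1, Tcf7 and Tcf7l2 are themselves TCF/LEF factors, and Sp5 is a zinc finger factor that β-catenin induces. Cd44, a hyaluronan receptor, and Ephb2, a receptor tyrosine kinase that positions cells along the crypt, are surface proteins used as readouts of the pathway.

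The TCF/LEF core, searched as CTTTGAT on either strand, lay in promoter peaks of 4 of the 10 genes. These sites are shown because they are the places in the promoter peaks with the letters that TCF/LEF factors recognize. Each run is from mm9, reads 5′ to 3′ with the core in capitals, and is given on the strand that reads CTTTGAT.
Axin2, chr11:108781731-108781757, plus strand, 81 bp inside the gene in the 5′ UTR: gccggctgcgCTTTGATaaggtcctgg
Axin2, chr11:108782536-108782562, plus strand, 886 bp inside the gene in an intron: ggccggcgcgCTTTGATgtgcggggcg
Nkd1, chr8:91045160-91045186, plus strand, 70 bp upstream of the start: tccgcctcgcCTTTGATgggccgctgc
Sp5, chr2:70312866-70312892, plus strand, 101 bp upstream of the start: gcaaggccccCTTTGATcaggaaaatc
Sp5, chr2:70313059-70313085, plus strand, 92 bp inside the gene in the 5′ UTR: agccgctattCTTTGATgattgggtag
Tcf7, chr11:52096860-52096886, minus strand, 192 bp upstream of the start: cccgcggtgcCTTTGATgttccgaccc
Nkd1, chr8:91052310-91052336, plus strand, 7080 bp inside the gene: ataagtaattCTTTGATagatgcctgg
The Axin2 and Sp5 sites and the first Nkd1 site lay in peaks of both lists. The Tcf7 site lay in the peak after inactivation (chr11:52096252-52097955) and outside the control peak, which ended at 52096851. The last Nkd1 site lay in a weak control peak near an internal start. Counted over whole peaks, 4 of 13 promoter peaks held a core in control (30.8%) and 4 of 12 after inactivation (33.3%), against 7.77% and 7.37% of all peaks near coding starts. Those peaks were narrower: the median width of the leading promoter peak was 1809 bp in control and 1786 bp after inactivation for the Wnt genes, against 1085 and 996 bp over all coding genes with one in both lists. In RefSeq promoters of a fixed 300 bases on its own start sites (assembly GRCm38.p6), 15 promoters of 9 of the genes were found and 1, that of Sp5, held the core, against 3.73% of 32851 promoters.

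All 10 Wnt genes had a promoter peak in both lists, as did 62.7% of coding genes. What differed was its place among the other peaks: 7 of the 10 promoters stood lower in their list after Taf4 inactivation, with differences of -26.6 to -9.45 percentile points, and Rnf43, Cd44 and Ephb2 stood higher by 0.937 to 4.17 points. The -26.6, at Tcf7l2, is between 2 peaks that do not overlap, and its peak over the 5′-most starts differed by -20.2. A lower place was common, being found at 65.8% of the 14014 coding genes with a promoter peak in both lists. The median difference over the 10 genes was -15.8 points, against -2.77 over those coding genes, whose middle range ran from -10.6 to 2.36. The median was -9.45 over the 7 genes whose peaks overlapped by 50% of both, and its sign turned, to 1.69, when peaks were ranked by width. The control promoters of the Wnt genes had a median percentile of 72.1, against 88.2 over coding genes, and the part of this lower starting rank in the difference was not tested.

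Among the feedback inhibitors, the Axin2 promoter had a fold of 2.16 in control (percentile 68.5, chr11:108781471-108783421) and 2.46 after inactivation (percentile 50.8), a difference of -17.7 points. Its raw fold was thus higher and its rank lower after inactivation. The raw fold was higher at all 10 promoters, on a scale that is not common to the libraries. The Znrf3 promoter had folds of 2.83 and 2.98 (chr11:5343574-5345553 in control) and went from percentile 94.2 to 75.6. Nkd1 had folds of 2.14 and 2.44 and went from percentile 66.5 to 49.1, with a peak of 2051 bp in control and 689 bp after inactivation. Rnf43 had nearly the same rank in both lists. Its promoter peak (chr11:87475956-87476346 in control), of fold 2.76 in control and 4.07 after inactivation, was at percentile 93.3 and 94.2, with widths of 391 and 720 bp.

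The 3 TCF/LEF genes all stood lower. Lef1 went from percentile 75.7 (fold 2.24, chr3:130813255-130815573) to 53.4 (fold 2.49), with peaks of similar width, 2319 and 2232 bp. Tcf7 went from percentile 71.9 (fold 2.19) to 57.6 (fold 2.55), and its peak lay further upstream after inactivation, with 600 bp shared. For Tcf7l2, the leading control peak was a narrow one of 276 bp at internal starts (chr19:55969922-55970197, percentile 84.7, fold 2.39) that had no counterpart after inactivation. The peak over the 5′-most Tcf7l2 starts was in both lists, at percentile 78.3 (fold 2.27) in control and 58.1 (fold 2.56) after inactivation, a difference of -20.2 points. Sp5 went from percentile 72.4 (fold 2.20) to 63.0 (fold 2.65), with widths of 2358 and 2941 bp.

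The surface proteins showed the smallest shifts besides Rnf43. Cd44 was at percentile 58.2 (fold 2.08) in control and 60.7 (fold 2.61) after inactivation, with widths of 657 and 1258 bp. Ephb2 had the lowest-ranked promoter of the 10 in both lists, at percentile 31.5 (fold 1.94) and 35.6 (fold 2.30). Ranked by −log10 p in place of fold, all 10 promoters stood lower after inactivation (68.0% of coding genes did), with a median difference of -13.8 points. By this measure the difference was -0.849 at Rnf43, -1.44 at Cd44 and -13.6 at Ephb2, so these 3 directions turned.

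**Figure D1:**
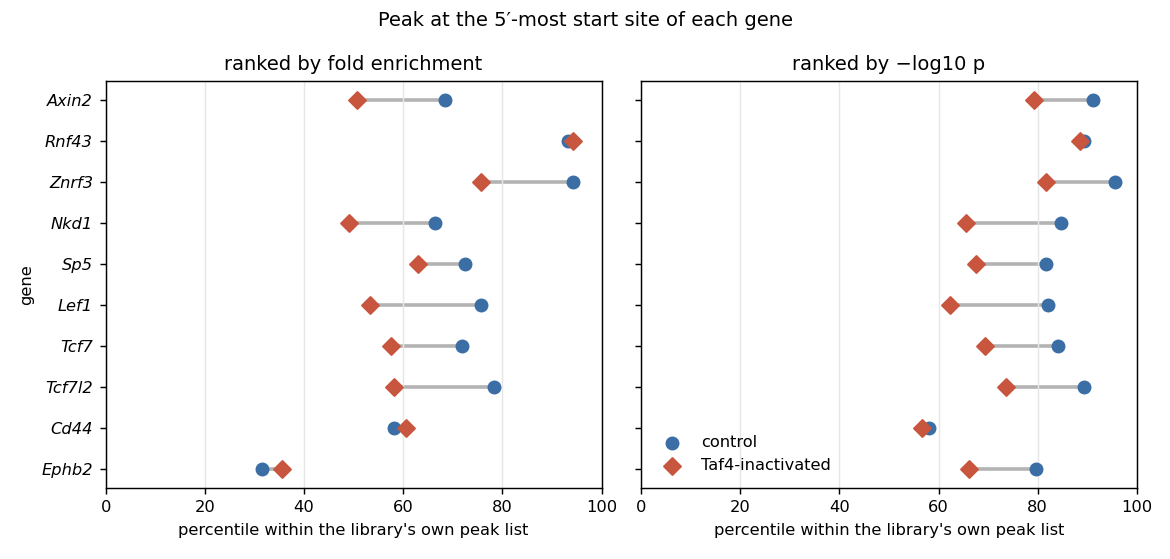
Percentile of the peak at the 5′-most start site within its library's own list, ranked by fold enrichment (left) and by −log10 p (right), for control (blue circles) and Taf4-inactivated enteroids (red diamonds), 1 library each; grey lines join the values of a gene. By fold, Axin2, Znrf3, Nkd1, Sp5, Lef1, Tcf7 and Tcf7l2 stood lower after inactivation and Rnf43, Cd44 and Ephb2 slightly higher; by p, all 10 stood lower.

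The genes have 59 annotated start positions, of which 44 were within 1 kb of a peak in control and 41 after inactivation. The 3 that differed were the internal Tcf7l2 starts, 152724 to 153852 bp from its first start. Of these, 2 lay inside the narrow 276 bp peak described above and 1 beside it. That peak covers coding sequence and UTR of Tcf7l2. At the internal Nkd1 start, 6289 bp into the gene, each list had its own weak peak without a counterpart: chr8:91052109-91052577 in control (percentile 18.7) and chr8:91050633-91051546 after inactivation (percentile 3.51). The internal Ephb2 starts, 141948 and 174336 bp from its first start, had no peak in either list.

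Distal peaks were more numerous in control at 9 of the 10 genes, as they were at 64.1% of coding genes with any distal peak. The 169 control and 120 Taf4-inactivated distal peaks gave a ratio of 1.41, against 1.26 over distal peaks of all coding genes. They covered 118.0 kb in control and 83.2 kb after inactivation, with median widths of 587 and 580 bp. A peak overlapping a peak of the other list by at least 1 bp was said to have a partner. In control, 88 of the 169 distal peaks had none (52.1%, exact 95% interval 44.3 to 59.8, counting error only), and 52.0% of distal control peaks of all coding genes had none. After inactivation, 42 of 120 had none (35.0%, interval 26.5 to 44.2), against 39.3%. In both lists the interval for the Wnt genes held the share over coding genes. Away from the start sites of all genes the shares were 55.0% of 151 peaks and 38.7% of 106, against 60.2% and 47.8%.

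The split varied between the genes, each with few peaks. The shares over coding genes were 52.0% in control and 39.3% after inactivation. Nkd1 had the largest share of distal peaks without a partner, 15 of 18 in control (interval 58.6 to 96.4%) and 6 of 9 after inactivation (29.9 to 92.5%). Its control distal peaks had a median percentile of 18.7, against 37.8 over the distal peaks of all 10 genes. Rnf43 had few, 4 of 17 (6.81 to 49.9%) and 3 of 16 (4.05 to 45.6%). At Znrf3, 9 of 15 control peaks and 3 of 9 peaks after inactivation had no partner. Axin2 had 7 of 17 and 3 of 12 without one. Among the TCF/LEF genes, Tcf7l2 had 18 of 28 and 8 of 18 without a partner, Lef1 10 of 17 and 5 of 12, and Tcf7 4 of 13 and 1 of 9. Ephb2, in a window of 288 kb, had the most distal peaks, 32 in control with 16 lacking a partner and 23 after inactivation with 8 lacking one. Cd44 had 5 of 10 and 4 of 9 without a partner. Sp5, the shortest gene at 2.81 kb, was the one gene with fewer distal peaks in control, 2 against 3.

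**Figure D2:**
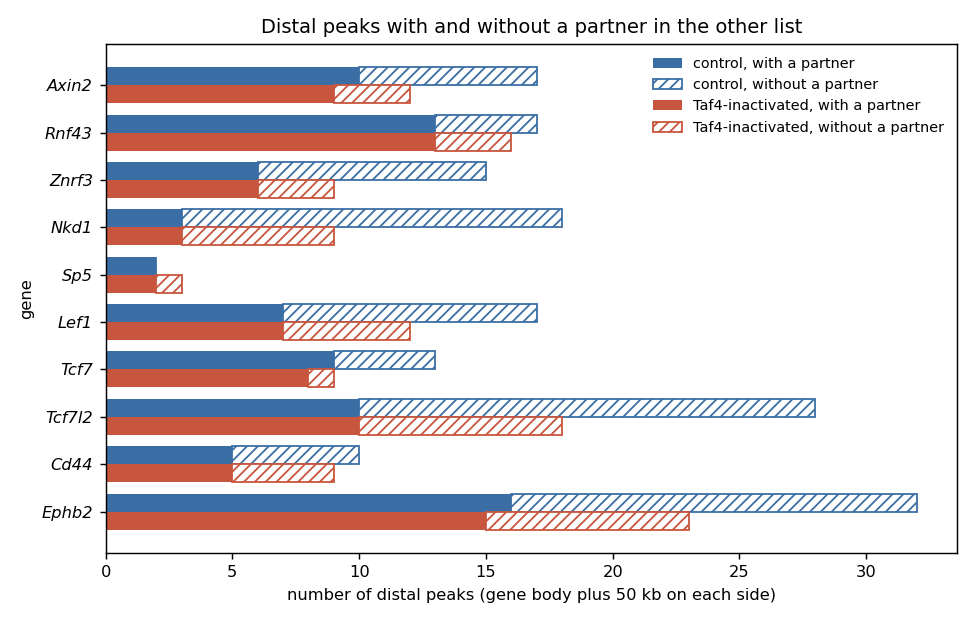
Number of distal peaks of each gene in the control (blue) and Taf4-inactivated (red) list, 1 library each, with solid bars for peaks that overlap a peak of the other list and hatched bars for those that do not. Control bars are longer for 9 of the 10 genes, and at Nkd1 15 of 18 control peaks are hatched.

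Distal peaks without a partner were narrower and had a lower median fold. Their median width was 419 bp in control, against 797 bp for distal peaks with a partner, and 358 against 690 bp after inactivation. Median folds were 1.93 against 2.09 in control and 2.27 against 2.60 after inactivation. The order of folds was the reverse at Tcf7 in both lists and at Cd44 in control. A narrow peak is less likely to overlap another, and these values over all coding genes are not given here. The difference is not read as a trait of the Wnt genes. Among the top 10% of each list by fold were 13 distal peaks of these genes in control (7.69%, against 9.44% of distal peaks of all coding genes) and 8 after inactivation (6.67%, against 9.79%). All 13 such control peaks had a partner. How often top 10% distal peaks of all coding genes had one is not given here. This is thus not read as a trait of the Wnt genes. The order of the counts also turned with the threshold. With a minimum −log10 q of 5, the genes held 17 distal peaks in control and 33 after inactivation, and the whole lists held 10757 and 20474 peaks.

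The best-ranked distal peak of the set lay in an intron of Rnf43 and was in both lists. It was at chr11:87510397-87511256 in control, 34.6 kb inside the gene, with fold 3.74 and percentile 99.5, and at chr11:87510434-87511222 after inactivation, with fold 5.09 and percentile 99.1. A further intronic Rnf43 peak, at chr11:87494216-87494780, ranked at 99.1 in control and 81.1 after inactivation. For Tcf7l2 the highest-fold distal peak was the same intronic one in both lists (chr19:55872189-55872863), at percentile 91.0 and 93.0. Near Tcf7 it was a peak 58.8 kb downstream of the start, in an intron of Gm16953 (chr11:52037495-52038224), at percentile 95.2 and 96.8. All 4 regions were thus in both lists, and at 3 of them the ranks differed by less than 2 points. The leading distal peaks of Axin2, Sp5 and Ephb2 were also in both lists, with the wider differences given below. These 4 regions were grouped after their values were seen, so their closeness in rank is not read as a trait of the set.

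Elsewhere the leading distal site changed rank or differed between the lists. Each was chosen for the highest fold in a list, which bears on the direction of its difference. The leading Znrf3 peak in control (chr11:5311570-5312012, intronic, fold 3.22) was at percentile 97.8 there and 71.3 after inactivation. The leading Znrf3 peak after inactivation was an intergenic one 40.8 kb upstream (chr11:5385249-5386124). It was at percentile 84.6 in control and 85.0 after inactivation. Downstream of Axin2, an intergenic peak (chr11:108845857-108846488) went from percentile 92.7 to 75.5. The leading distal peak of Sp5 (chr2:70324542-70325153), 11.9 kb from the start, went from 88.8 to 76.5. In the opposite direction, the leading Cd44 peak after inactivation (chr2:102666132-102666725, intronic) went from 76.8 to 93.8, with folds of 2.25 and 4.03. The leading Cd44 peak in control was another intronic one (chr2:102655333-102655756), which went down from 93.2 to 85.4. Upstream of Ephb2, a peak about 7 kb before the start (chr4:136398131-136399944 in control) went from 73.1 to 83.9. For Lef1 the leading control peak, intronic at chr3:130894035-130894456 and at percentile 84.2, had no partner. The leading Lef1 peak after inactivation, in an intron of Hadh (chr3:130966818-130967386), went from 81.6 to 70.7. For Nkd1 the leading distal peaks were 2 different regions, an intronic one at percentile 66.2 in control (chr8:91064183-91065304) and, after inactivation, one 32.4 kb upstream without a partner at percentile 57.0 (chr8:91012744-91012988).

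One distal peak in the top 10% of its list was without a partner, and it was an intronic peak of Tcf7l2 after inactivation, at chr19:55934540-55934899, with fold 3.75 and percentile 90.9. It held a TCF/LEF core. Of the 10 leading distal peaks in each list, 2 held one in control (Znrf3 and Ephb2) and 2 after inactivation (Cd44 and Ephb2), against 7.80% and 8.22% of all peaks of the lists over their whole length. The Ephb2 peaks were wide, 1814 and 2125 bp, against list medians of 584 and 530 bp. The Znrf3 peak had 443 bp and the Cd44 peak 594 bp. The Znrf3, Ephb2, Cd44 and Tcf7l2 regions are shown as 200 bases of the mm9 plus strand around the core. Over whole peaks, 7 of 88 distal peaks without a partner in control (7.95%) and 5 of 42 after inactivation (11.9%) held a core. Those shown are the leading distal sites, and the unpartnered one in the top 10%, that have the TCF/LEF letters. None of them lies over annotated coding sequence or UTR, and each holds 1 core, in capitals.
Znrf3 intron, chr11:5311728-5311927: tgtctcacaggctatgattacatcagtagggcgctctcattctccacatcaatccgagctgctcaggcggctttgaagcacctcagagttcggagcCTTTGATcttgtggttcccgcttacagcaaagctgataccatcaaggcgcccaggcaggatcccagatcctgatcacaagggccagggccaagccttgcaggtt
Ephb2 upstream, chr4:136398812-136399011: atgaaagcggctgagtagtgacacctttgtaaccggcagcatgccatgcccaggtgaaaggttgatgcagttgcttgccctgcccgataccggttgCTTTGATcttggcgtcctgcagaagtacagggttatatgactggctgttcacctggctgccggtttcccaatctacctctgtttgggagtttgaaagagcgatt
Cd44 intron, chr2:102666235-102666434: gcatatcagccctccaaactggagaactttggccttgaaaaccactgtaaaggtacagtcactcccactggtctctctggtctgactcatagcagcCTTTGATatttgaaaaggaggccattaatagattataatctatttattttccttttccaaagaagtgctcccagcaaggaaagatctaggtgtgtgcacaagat
Tcf7l2 intron, chr19:55934612-55934811: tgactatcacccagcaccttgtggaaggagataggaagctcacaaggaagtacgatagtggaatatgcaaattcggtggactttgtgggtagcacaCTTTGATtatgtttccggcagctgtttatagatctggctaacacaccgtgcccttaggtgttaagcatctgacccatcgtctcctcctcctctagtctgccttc
After inactivation the Znrf3 site ranked lower and the Ephb2 and Cd44 sites ranked higher, and the Tcf7l2 site was in that list alone. The regions were chosen by rank or presence in 1 list, which bears on these directions.

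**Figure D3:**
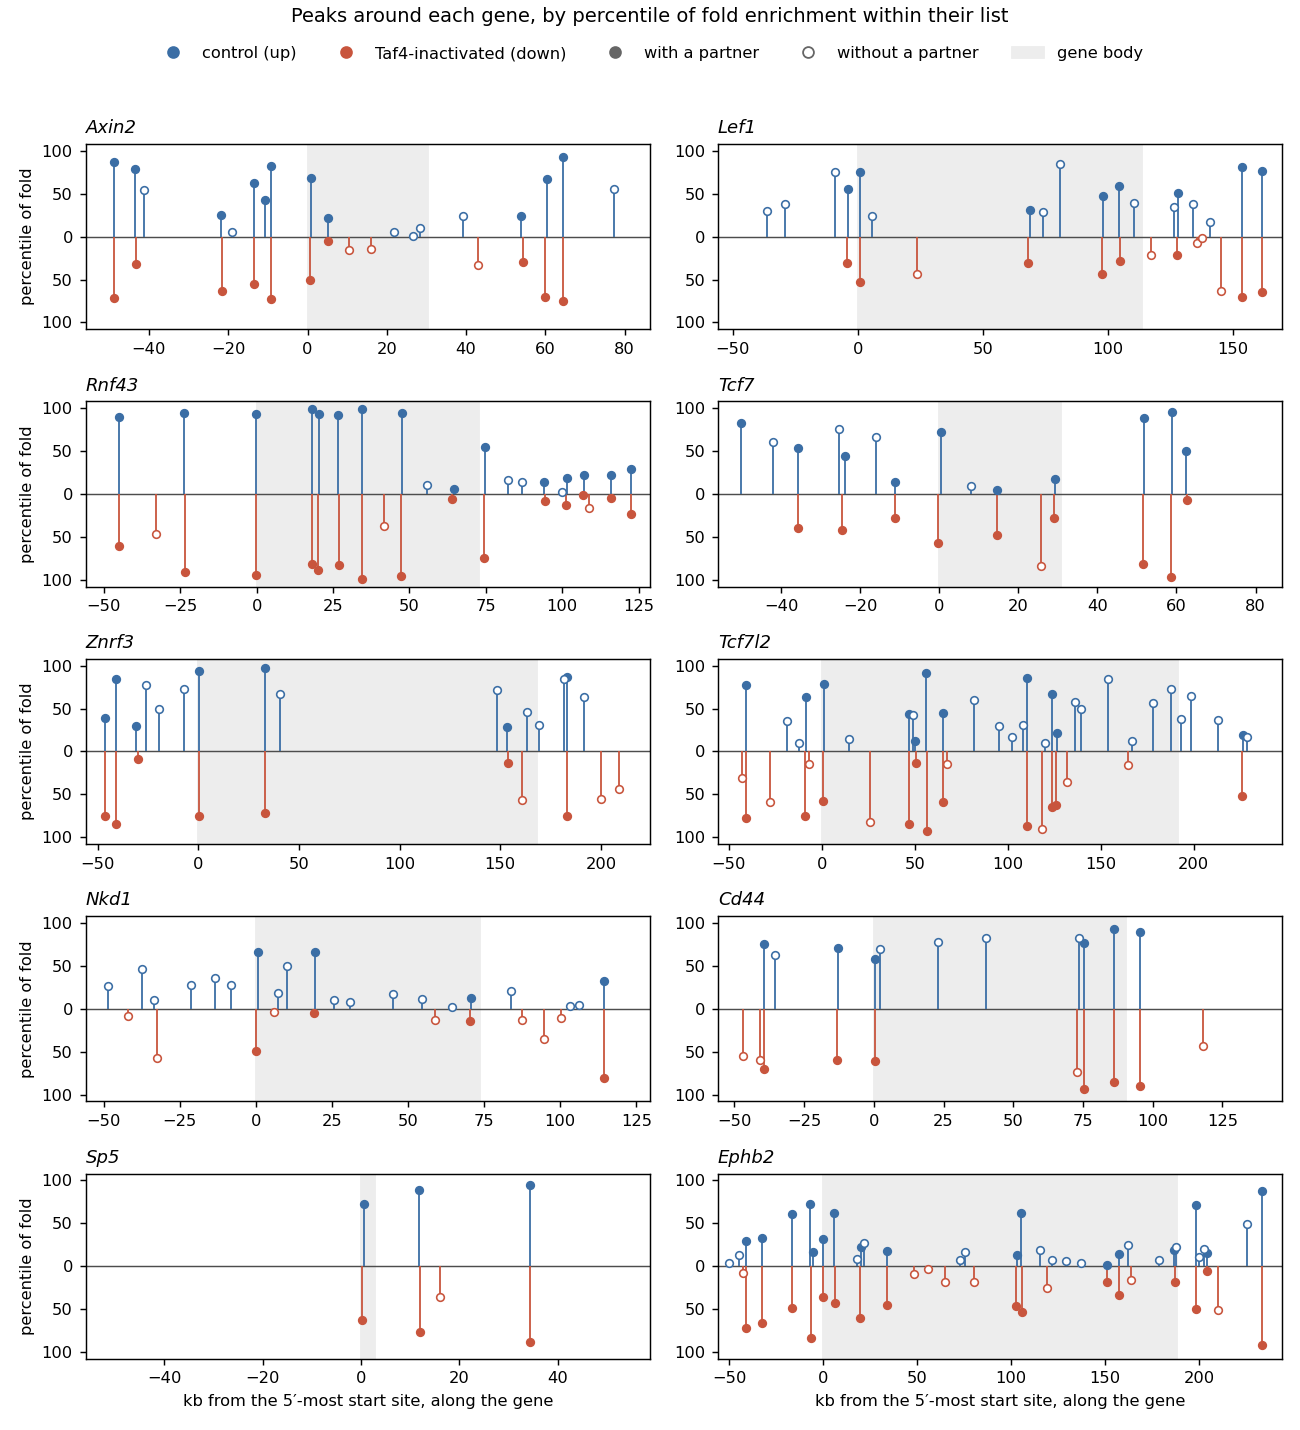
Peaks around each gene by distance of the peak centre from the 5′-most start site (kb, along the direction of transcription; grey marks the gene body), drawn up for control and down for Taf4-inactivated enteroids, with height the percentile of fold within the library's list. Open circles have no partner in the other list; they crowd at Nkd1, where 15 of 18 distal control peaks are open, and are few at Rnf43, where the intronic peak at percentile 99.5 in control is seen in both.

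Where a peak of one list was the best match of a peak of the other and the reverse, the 2 were taken as a pair. There were 79 such distal pairs, of which 34 ranked higher after inactivation and 45 lower. Away from start sites, 30 of 66 ranked higher (45.5%, against 43.0% over all such pairs of the genome), and by −log10 p 23 of 66 did (34.8%, against 40.3%). The direction differed between genes, each with few pairs. Over all pairs of the lists, promoter pairs included, 40.2% ranked higher (37.4% by −log10 p). At Rnf43, 11 of 13 distal pairs ranked lower after inactivation (median -6.09 points), and at Lef1 6 of 7 did (median -12.6). Some pairs of the Rnf43 window lay over Hsf5 or Bzrap1, and some of the Lef1 window over Hadh. At Tcf7l2, 8 of 10 ranked higher (median 7.02), beside a promoter that ranked lower, and at Ephb2 10 of 15 did (median 10.8). Lower pairs were also the more numerous at Znrf3 (4 of 6, median -13.2), Axin2 (6 of 9, median -9.03), Cd44 (4 of 5) and Sp5 (2 of 2). Higher pairs were the more numerous at Tcf7 (5 of 9) and Nkd1 (2 of 3). Ranked by −log10 p, higher pairs numbered 6 of 10 at Tcf7l2 (median 1.55) and 6 of 15 at Ephb2, where the median turned to -5.07, and lower pairs 10 of 13 at Rnf43 and 6 of 7 at Lef1. Pairs at 1 gene share their libraries and neighborhood and are not replicates.

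The widest differences among the pairs were at single regions. An intronic Nkd1 peak (chr8:91064183-91065304), the leading distal peak of this gene in control, went from percentile 66.2 to 4.57, the largest difference downward. An intergenic peak 43.4 kb upstream of Axin2 (chr11:108738129-108738397) went from 79.0 to 32.2, and a peak 62.4 kb from the Tcf7 start (chr11:52033812-52034704) from 50.4 to 7.28. The largest differences upward were at the start of Snx20 in the Nkd1 window (chr8:91159013-91160128, from 32.1 to 80.7), in an intron of Tcf7 at a non-coding exon of Gm16953 (chr11:52081640-52082410, from 5.14 to 47.9) and 41.0 kb upstream of Ephb2 (chr4:136432551-136433224, from 29.5 to 72.1). The first of these 3 belongs by position to a neighboring gene as much as to Nkd1. The windows of Rnf43, Znrf3, Nkd1, Sp5, Lef1, Tcf7 and Ephb2 all hold start sites of other coding genes, and 18 of the 169 control distal peaks lay at a start of another gene.

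**Figure D4:**
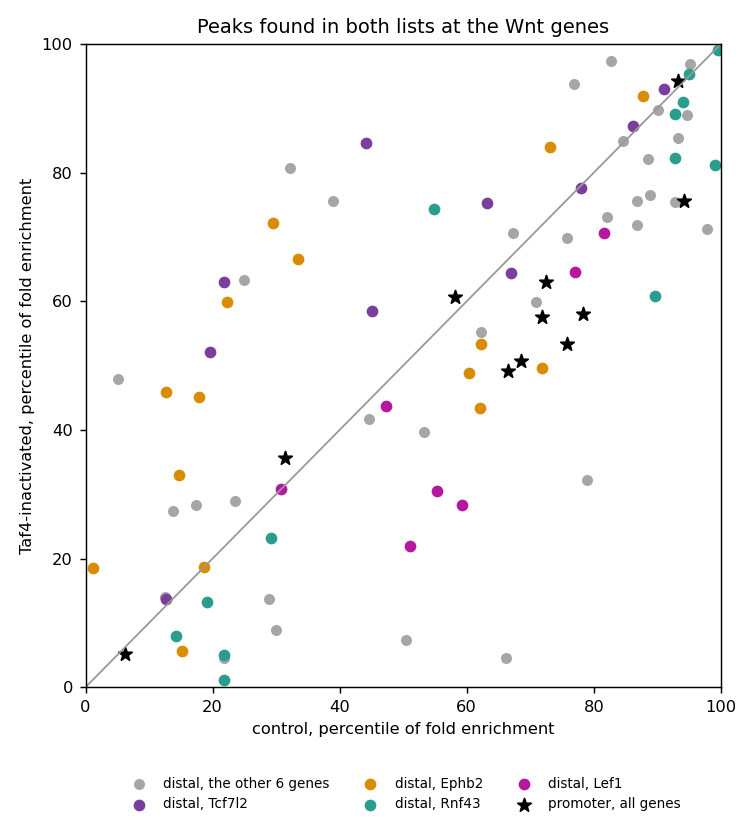
Percentile of fold enrichment in control (x axis) and Taf4-inactivated enteroids (y axis) for peaks paired between the lists, 1 library each; the line marks equal percentiles, stars are promoter peaks and circles distal ones. Tcf7l2 and Ephb2 circles lie mostly above the line by this measure, Rnf43 and Lef1 circles mostly below it, and most stars lie below it.

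In windows of 300 bp at the peak midpoint, the TCF/LEF core was found in 12 of the 182 control peaks of the Wnt genes (6.59%, exact 95% interval 3.45 to 11.2) and in 13 of 132 after inactivation (9.85%, interval 5.35 to 16.3). Over whole lists it was found in 3.51% and 4.20% of such windows, and the control interval held the whole-list share. For distal peaks the shares were 5.92% (interval 2.87 to 10.6) and 9.17% (4.67 to 15.8). Peaks away from coding starts in the whole lists had 3.85% and 4.81%, inside these intervals. Promoter peaks held it in 2 of 13 and 2 of 12 windows, against 2.08% and 2.05% near all coding starts. In 200 bp windows the shares over all Wnt gene peaks were 3.30% against 2.39% in control and 9.09% against 2.86% after inactivation. Distal peaks without a partner held it in 4 of 88 windows in control and 4 of 42 after inactivation, and those with a partner in 6 of 81 and 7 of 78, with intervals that overlap throughout.

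Over whole peaks the 10 genes held 34 separate cores, 14 inside a peak of each list, 10 inside a control peak but no Taf4-inactivated peak and 10 the reverse. A core of the latter kinds can lie in a peak that has a partner, where the partner ends short of the core. All 3 cores at Lef1 were inside control peaks alone, as were 3 of 5 at Znrf3 and 3 of 5 at Nkd1. Of 6 cores at Tcf7l2, 2 were inside peaks of both lists and 4 inside peaks of the list after inactivation alone, of which 2 lay in peaks without a partner. Of 4 at Ephb2, 2 were inside peaks of both lists and 2 inside peaks of the list after inactivation alone. Axin2 and Sp5 had 2 cores each, all in promoter peaks of both lists. How cores in all peaks of the lists split in this way is not given here. Of distal peaks of all coding genes, 52.0% in control and 39.3% after inactivation had no partner. The split is thus not read as a trait of the Wnt genes. A match of 7 letters is a description of the sequence and not evidence of binding.

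**Figure D5:**
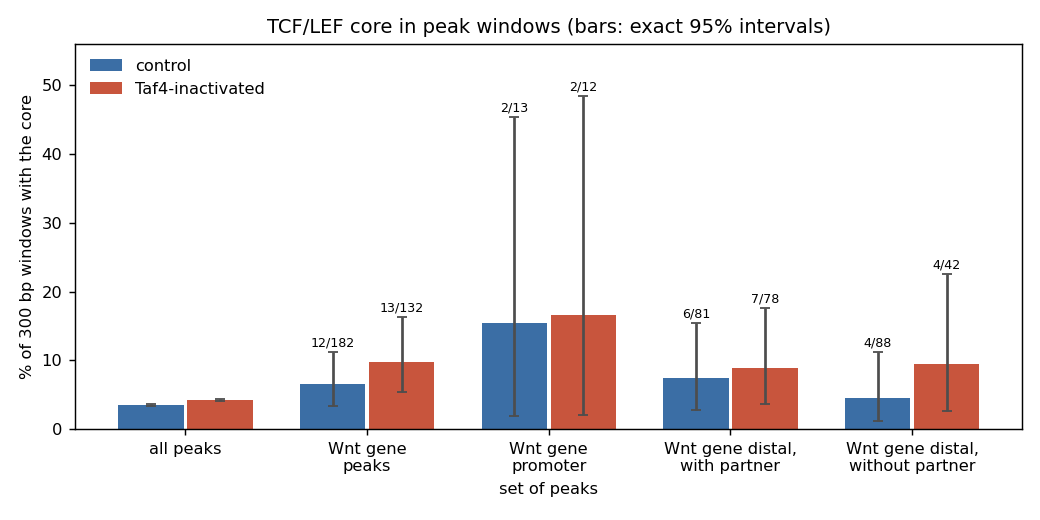
Percent of 300 bp peak windows with the TCF/LEF core on either strand in control (blue) and Taf4-inactivated (red) lists; vertical lines are exact 95% intervals, which cover counting error only, and the labels give windows with the core over all windows. The Wnt gene shares, 6.59% and 9.85%, stand above the whole-list shares of 3.51% and 4.20%. The control interval holds the whole-list share, and the intervals for the subsets are wide.

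Of 28 other genes of the pathway (the destruction complex, Dishevelled proteins, β-catenin and its cofactors, and further targets), 26 had a promoter peak in both lists, and Dvl2 and Prox1 had one in control alone. Of the 26, 18 stood lower after inactivation and 8 higher, with a median difference of -3.50 points. The range ran from -34.3 at Sox9 (percentile 60.2 to 25.9), a crypt transcription factor, to 34.7 at Notum (25.5 to 60.2), a secreted enzyme that inactivates Wnt ligands. The stem cell receptor Lgr5 went from 94.4 to 77.5, and Ascl2, a stem cell transcription factor, from 36.3 to 50.5. β-catenin itself (Ctnnb1) went from 81.2 to 87.8. Their distal peaks had no partner in 139 of 296 cases in control (47.0%, interval 41.2 to 52.8) and in 83 of 241 after inactivation (34.4%, interval 28.5 to 40.8), so both gene lists had overlapping intervals in each library.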

How the data were processed

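ATAC-seq was performed on 1 control and 1 Taf4-inactivated enteroid library. Per the labels and the methods of the study, base calls were converted with bcl2fastq 2.17.1.14, reads were mapped to mm9 with Bowtie 1.0.0 keeping unique matches, and broad peaks were called in each library by MACS2 2.1.1. Treatment of duplicate and mitochondrial reads is not given in the sources used here. The deposited lists give for each peak a fold enrichment over local background (a ratio), a −log10 p and −log10 q from a Poisson model, and a score equal to 10 times the −log10 q as a whole number. Listed −log10 q values began at 1.01 and 1.00.

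Peaks were assigned to genes with GENCODE vM1 in Python 3.11.15 (pandas 2.3.3, numpy 2.4.6, scipy 1.17.1), and figures were drawn with matplotlib 3.10.9. Percentiles were taken over all peaks of a list. Shares carry exact Clopper-Pearson 95% intervals. The background level was solved from the fold and p of the narrowest 10% of peaks. Overlap, promoter and distal assignment and the background level were tested on simulated peaks, and 6 of 6 steps were recovered. The pairing, the ranking and the core search were not tested in this way. The genes, gene lists and marker lists were chosen with earlier results of these data known. All 10 genes are named, with the highest-fold promoter peak in each list. Regions named are the highest-fold distal peak away from other start sites for each gene and list, distal peaks in the top 10% without a partner, and, both upward and downward, the 3 pairs whose ranks differed most. Other regions, promoter peaks at internal starts and pathway genes were named after their values were seen. Alternatives covered start site distance, transcript type, ranking, q minimum, overlap, flank, and core length and window.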

Additional observations from a re-analysis of the deposited data

How the results depend on the processing

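No paired analysis was possible because each genotype had 1 library, and for the same reason no replicate could be left out. Of 40 alternatives to the comparisons, 19 left a share within its counting interval, a count within 1.5 times or the median promoter difference as it was, 19 moved the value and 2 reversed it. At a −log10 q of at least 5, 4 genes had a promoter peak in both lists, the difference in distal peaks (49) became -16, and the share without a partner fell to 0% of 17 in control (upper exact bound 19.5%) and 9.09% of 33 after inactivation. At a −log10 q of at least 2 that difference was 9 and the control share 39.3%. With lists cut to the 50000 peaks of highest −log10 p, an alternative chosen after seeing the data, these were 13 and 41.7%. An overlap of 50% of both peaks gave 70.4% and 58.3% without a partner. The median promoter difference was -13.8 ranked by −log10 p, -12.4 among promoter peaks alone, -9.45 over the 7 genes with 50% overlap, and 1.69, the opposite sign, ranked by width. For single genes, the sign turned by −log10 p at Rnf43 (-0.849), Cd44 (-1.44) and Ephb2 (-13.6). The control core share was 3.30% in 200 bp windows, 11.5% over whole peaks, 20.9% for CTTTGA and 1.65% for CTTTGATG, against 2.39%, 7.80%, 16.1% and 1.20% over the whole list. After inactivation it was 16.7%, 31.8% and 3.03% for the last 3, against 8.22%, 18.4% and 1.21%. The peaks at the 5′-most start, also chosen after seeing the data, left the median at -15.8. The causes, depth among them, were not tested.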
